A study of Mus musculus with 3 samples.

Results

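The genes described here encode the proteins of the mitochondrial ribosome. They were chosen by name alone, as the protein-coding genes whose mouse symbol begins with Mrpl or Mrps followed by a number, and each was represented by its longest transcript with a 5′ UTR, a coding sequence (CDS) and a 3′ UTR. The rule found 78 genes among 20823, on 17 chromosomes. All 78 passed the minimum of 100 CDS reads over the 3 libraries that was used for ratios, as did 11459 genes in all. By the usual assignment, 51 of the 78 proteins belong to the large subunit, including Mrps18a and Mrps30 in spite of their names, and 26 belong to the small subunit. Mrps36 bears the name of a ribosomal protein but is known as a subunit of the 2-oxoglutarate dehydrogenase complex, and it was kept because the rule selects it.

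Mitochondrial ribosomes sit in the mitochondrial matrix and translate only the mRNAs that the mitochondrial genome encodes, all for subunits of the respiratory chain and ATP synthase. Their RNAs come from the mitochondrial genome, while all of their proteins are made on cytosolic ribosomes from nuclear genes and imported. Some of these proteins belong to families also found in bacterial ribosomes, and the others exist only in mitochondria. The footprints described below are therefore those of cytosolic ribosomes, the target of both drugs, on the mRNAs for mitochondrial ribosomal proteins.

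The libraries came from primary cortical neurons cultured from embryos of CD-1 mice, with genotype not given, and each pooled 3 dishes. Untreated neurons (WT), neurons given cycloheximide for 2 minutes (Chx) and neurons given harringtonine for 2 minutes followed by a pulse of cycloheximide (Harr) gave 1 library each, and the lysis buffers of all 3 held cycloheximide at 100 µg/ml. Cycloheximide stops elongating ribosomes where they are, whereas harringtonine holds ribosomes that are starting and lets those already elongating run to the stop codon. With 1 library per treatment no difference had a replicate check, so errors are counting errors only and no p-value is given. No mRNA level was measured beside the footprints, so more mRNA, more cells that express a gene and more ribosomes per mRNA cannot be told apart.

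The libraries held 30219197 (WT), 35722483 (Chx) and 9754412 (Harr) reads, of which 16673134, 20212047 and 3774621 lay in the chosen CDSs. Harr was thus the shallowest, so that a count of 3 corresponds to 0.795 reads per 1000000 CDS reads (CPM) in Harr, 0.180 in WT and 0.148 in Chx. The 4 neuronal markers Map2, Tubb3, Rbfox3 and Syt1 together held 6360 (WT), 6128 (Chx) and 8756 (Harr) CPM. The 4 astrocyte markers held 386, 345 and 204, and their part in the results was not tested. Microglia were represented by 4 markers at 4.62, 6.48 and 1.59 in sum. For oligodendrocytes the sums of 4 markers were 10.4, 11.5 and 5.56, and 2 of these genes stood at 0 in every library.

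The letters around the start codon are shown first, because reads beside it are part of the 5′ UTR results. Each line gives 15 bases before the start codon, the start codon in capitals and 12 bases after it, from GENCODE M21 transcripts (GRCm38, mm10). The first 6 are the only members with the letters AAGATGGCG at the start codon, the core of an initiation element known from short 5′ UTRs, and the last 4 are members at the extremes of the results below.
Mrpl35: taggcaggctgcaagATGgcggcttccatc
Mrpl38: cgacctgggggaaagATGgcggcgccctgg
Mrpl46: tgggaagacagaaagATGgcggcgcccgta
Mrps18a: caggtgcgttccaagATGgcggccctcagg
Mrps24: tcgcgccggcccaagATGgcgtggtccgcg
Mrps27: ttggtgcgctccaagATGgcggctcccatg
Mrpl16: agcacacgcgtggccATGtggaggctgttg
Mrpl33: gagaatcggtggaccATGctgctctccgct
Mrps5: tgctccggctccagcATGgcggcggccgta
Mrps30: tcgcggcgggcgaaaATGgcggcggccagg

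The letters AAGATGGCG, searched on the transcript strand at the annotated start codon only, were found in 6 of 78 members (7.69%) and in 304 of 11423 genes with at least 100 CDS reads and a matching reference transcript (2.66%). The shorter ATGGCG, which the first motif contains, was found in 25 members (32.1%) and in 1317 of all those genes (11.5%). Nuclear genes of oxidative phosphorylation held them in 13.0% and 29.9% and cytosolic ribosomal protein genes in 6.58% and 14.5%. A purine stood 3 bases before the start codon in 72 members (92.3%) and in 86.6% of all genes. A C followed by 4 pyrimidines at the annotated transcript start, the hallmark of cytosolic ribosomal protein mRNAs, was found in 4 members (5.13%), in 11 of 76 cytosolic ribosomal protein genes (14.5%) and in 2.34% of all genes. The search thus missed most of the genes known for it. The annotated start of a longest transcript may differ from the start in these neurons, so nothing is read from these shares.

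The members were short throughout. Their median CDS was 578 nucleotides, from 192 (Mrpl52) to 1329 (Mrps30), against 1383 for all genes, and 74 of 78 were under 1200 nucleotides. Their median 5′ UTR was 91.5 nucleotides against 198, and 11 members (14.1%) had a 5′ UTR under 30 nucleotides, against 4.62% of all genes. An ATG upstream of the start codon was present in the 5′ UTR of 31 members (39.7%) and of 54.0% of all genes.

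In untreated neurons the members' CDSs were translated at levels above the median of all genes tested. Their 60417 CDS reads were 0.362% of all CDS reads in WT, and the 73140 in Chx and 8362 in Harr were 0.362% and 0.222%. The median level per length was 39.2 reads per kilobase per 1000000 reads of the library (RPKM) in WT, 41.6 in Chx and 15.9 in Harr. Over all genes tested the median was 11.7 in WT, 12.4 in Chx and 8.001 in Harr, so that the level in Harr was lower over all genes too. Levels per length fall with CDS length, and between CDSs of like length the members stood closer to all genes. In WT the medians were 56.2 RPKM for members and 40.6 for all genes under 600 nucleotides, and 29.7 and 16.9 from 600 to 1200. In WT 76 of 78 members lay above the median of genes tested, and 5 above the 90th percentile. The level at the 90th percentile of members was 4.98 times that at the 10th in WT, 4.45 times in Chx and 4.63 times in Harr. The same quotient in WT was 17.9 for 76 cytosolic ribosomal protein genes and 10.7 for 77 nuclear genes of oxidative phosphorylation, groups that also make parts of one machine each. It was 5.64 for 5 mitoribosomal proteins under other symbols and 5.04 for 22 mitoribosome assembly factors, near that of the members. Sequence that a CDS shares with other genes was measured for the members only, and every group rests on longest transcripts. The part of shared sequence, transcript choice and the make-up of each group in these quotients was not tested.

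The highest level in WT was that of Mrpl34, a small protein of the large subunit from a bacterial family, with 162 RPKM in WT, 165 in Chx and 49.2 in Harr. Mrpl20, which takes part in early assembly of the large subunit in bacteria, followed with 155, 137 and 69.0 RPKM. Mrps6 had 139, 116 and 27.7 RPKM. Mrps17, an early-binding protein of the small subunit in bacteria, had 124, 121 and 25.7 RPKM. All 4 were lowest in Harr.

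The fifth, Mrpl33, had 97.8 RPKM in WT, 64.5 in Chx and 25.3 in Harr. Its longest transcript is annotated as a target of nonsense-mediated decay, with a CDS of 324 nucleotides. On its longest transcript of type protein_coding, whose CDS has 198 nucleotides, the levels were 194, 141 and 49.7 RPKM, which would place it first in WT.

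The lowest level in WT was that of Mrps27, a small-subunit protein with pentatricopeptide repeats, with 10.5 RPKM in WT, 13.2 in Chx and 5.59 in Harr. Mrps9, a small-subunit protein from a bacterial family, had 11.4, 10.3 and 6.47 RPKM. Mrps30, in the large subunit, had 12.9, 14.3 and 8.41 RPKM. Mrpl45, which lines the exit of the peptide tunnel and ties the ribosome to the inner membrane, had 14.1, 13.5 and 6.57 RPKM. Mrpl1, the protein of the L1 stalk, had 14.3, 15.1 and 7.30 RPKM. All 5 have CDSs of 921 nucleotides or more. Over the 78 members the RPKM fell with CDS length in rank (Spearman's rho −0.682 in WT, −0.604 in Chx and −0.434 in Harr), and the points share the libraries and the length that RPKM divides by.

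**Figure D1:**
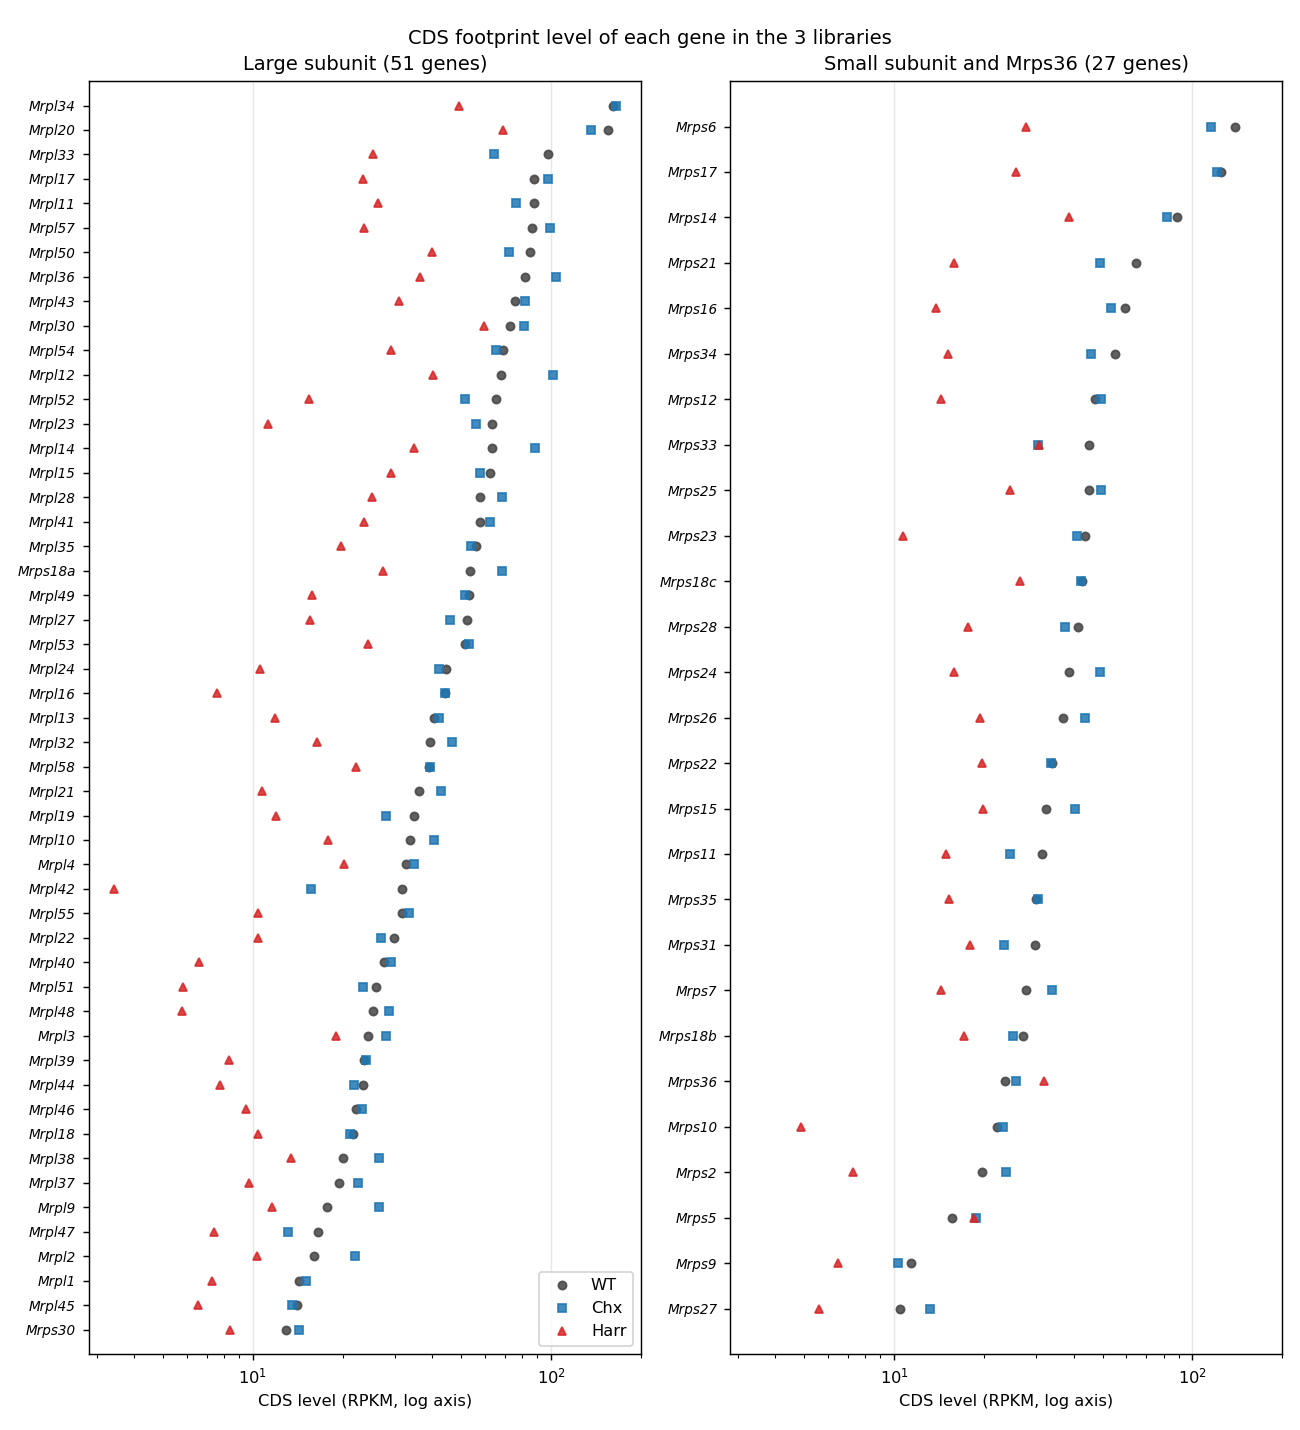
CDS level (RPKM, log axis) of each of the 78 genes in WT (circles), Chx (squares) and Harr (triangles), 1 library each, with genes ordered by the level in WT. Large-subunit genes are on the left and small-subunit genes with Mrps36 on the right. The levels in WT run from 10.5 (Mrps27) to 162 (Mrpl34), and most Harr points lie to the left.

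The first comparison asked how footprints on these CDSs differed after 2 minutes of harringtonine, with Chx as the reference. As a group the members held a smaller part of the CDS reads in Harr. A gene was called lower or higher where its log2 ratio of CPM was at least 0.5 in size and its 95% counting interval did not reach 0. By this rule 53 of 78 members (67.9%) were lower in Harr than in Chx, against 26.8% of all genes tested, and 3 were higher, against 20.1%. The members' median log2 ratio was −0.78, with the 10th and 90th percentiles at −1.51 and −0.12, and 72 of 78 lay below 0. The median of all genes was −0.05. Scaled to all aligned reads of each library in place of CDS reads, the median of all genes was −0.60, that of the members −1.32, and 73 members were called lower. The members then lay 0.73 below the median of all genes, as they did with CDS reads. The split of calls over all genes was 407 higher and 6006 lower on that scale, against 2299 and 3069.

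The lowest ratio was that of Mrpl16, a protein next to the site where the large subunit receives the tRNA, with 1006 CDS reads in WT, 1192 in Chx and 56 in Harr (log2 ratio of Harr to Chx −1.98 ± 0.20, counting SE). Mrpl23, a large-subunit protein at the tunnel exit, had 993, 1041 and 57 CDS reads (−1.76 ± 0.20). Mrpl48 had 486, 648 and 36 (−1.73 ± 0.25). All 3 were called lower. The CDSs of Mrpl23 and Mrpl48 share 80.8% and 63.9% of their 25-nucleotide words with other genes, that of Mrpl16 none.
Mrps17 had 1365, 1563 and 91 CDS reads (−1.67 ± 0.16), and Mrps10, a protein at the head of the small subunit, 324, 401 and 23 (−1.67 ± 0.31). Among members with a known part in translation itself, Mrps12, at the decoding centre, had 597, 739 and 59 (−1.21 ± 0.19). Mrps16 had 731, 776 and 55 (−1.39 ± 0.20) and Mrps2 523, 744 and 62 (−1.15 ± 0.19). All of these were called lower, but on the transcript of Mrps10 with the most reads (388, 501 and 48) the ratio was −0.95 ± 0.22. The CDSs of Mrps10 and Mrps16 share 73.0% and 57.0% of their words with other genes.
Mrpl44, which carries a fold of the RNase III type, had 708 CDS reads in WT, 784 in Chx and 76 in Harr (−0.94 ± 0.17) and was called lower. Mrpl12, the protein of the stalk that binds translation factors, had 1246, 2191 and 237 (−0.79 ± 0.10) and was called lower as well. Mrpl45 (393, 444 and 59, −0.48 ± 0.20), Mrps22 (1100, 1292 and 207, −0.22 ± 0.11) and Mrpl3, close to the peptidyl transferase centre (770, 1050 and 194, −0.01 ± 0.11), were not called.

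The 3 members called higher in Harr were Mrps36 (219, 283 and 96 CDS reads in WT, Chx and Harr, 0.87 ± 0.17), Mrps33 (437, 349 and 96, 0.56 ± 0.17) and Mrps5 (614, 876 and 235, 0.52 ± 0.11). Mrps31 followed with 1037, 965 and 202 reads (0.17 ± 0.11) and was not called. Of the 3, Mrps36 shares 100% and Mrps33 91.9% of the 25-nucleotide words of its CDS with transcripts of other genes, processed pseudogenes among them, and Mrps5 shares 56.4%. How reads that match several sites were counted in the deposited tables is not stated, so reads of such genes may be split or mixed. Scaled to all aligned reads, none of the 3 was called, and the ratio of Mrps5 was −0.023.
Among the 50 members that share at most 10% of their words, 34 were called lower and 0 higher, with a median of −0.71. Among the 28 that share more, 19 were called lower and 3 higher, with a median of −0.81. For 24 of these 28 the gene sharing most words was a processed pseudogene elsewhere in the genome, and for 4 it overlapped the member itself, as Gm42688 does for Mrpl53 (100% shared).

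The ratio differed with CDS length over all genes, so the members were set beside other genes of like length. For CDSs under 600 nucleotides the median was −0.96 over 41 members and −0.68 over 1629 other genes, and 28 of the 41 lay below the median of the others. From 600 to 1200 nucleotides it was −0.62 over 33 members and −0.54 over 3111 other genes, with 18 of 33 below. The 4 members over 1200 nucleotides had a median of −0.44, against −0.07 over 3156 other genes up to 2000 nucleotides. Over all genes the median was 0.36 in the next class, up to the longest CDSs, where it was 0.66. The gap between members and other genes was thus −0.28 in the shortest class, −0.09 in the next and −0.37 in the class of 4 members. With WT in place of Chx the gaps were −0.25, 0.07 and −0.23, so that the gap from 600 to 1200 nucleotides changed sign. No replicate was there to set these gaps against. Over the 78 members the rank correlation of ratio and CDS length was 0.375, over all 11459 genes 0.589 (points share the libraries).

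**Figure D2:**
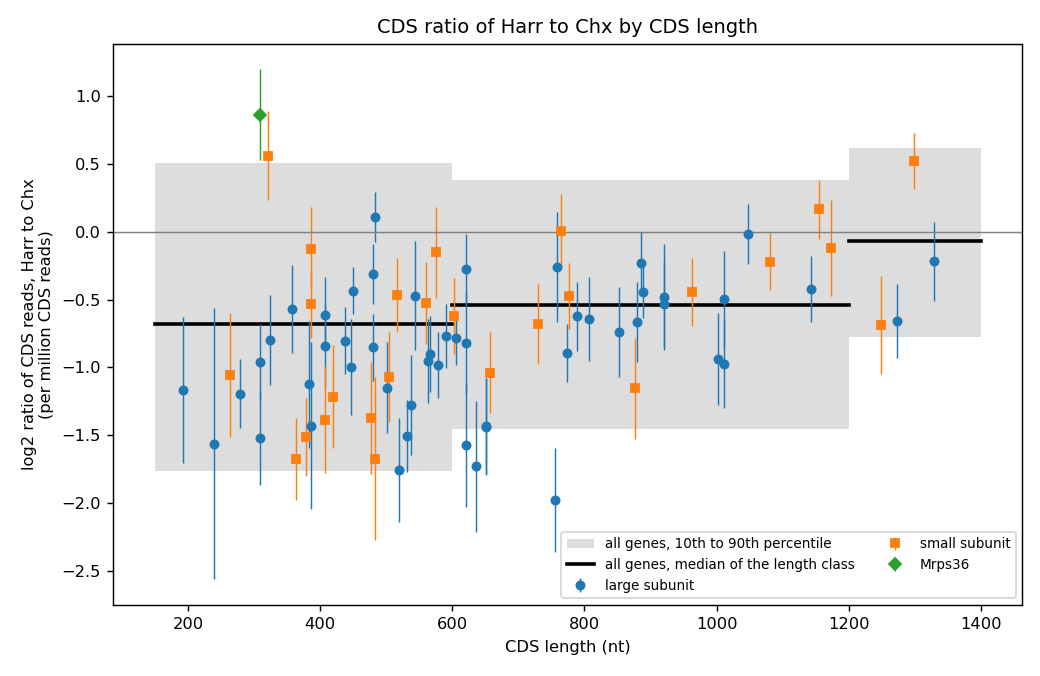
Log2 ratio of CDS reads in Harr to Chx, on the CPM scale, against CDS length for the 78 genes, with 95% counting intervals. Black lines are medians and grey bands the 10th to 90th percentiles of all genes in 3 length classes. Most genes lie below 0, and 53 of the 78 were called lower, while Mrps36 lies highest.

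The 2 other sets of nuclear genes for large assemblies lay lower still. Harr lay below Chx by a median of −1.58 (log2) over 76 cytosolic ribosomal protein genes, with 63 called lower, and −1.35 over 77 nuclear genes of oxidative phosphorylation, with 66 called lower. Within CDSs of 600 to 1200 nucleotides the medians were −1.56 (20 genes) and −1.47 (12 genes), against −0.62 for the members. The genes of these sets were more highly translated than the members, with median levels of 128 and 245 RPKM in WT against 39.2, and the part of level in the difference was not tested.

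Along the CDS, the members' reads were fewer in Harr between 100 and 600 nucleotides from the start codon. Each coding exon segment of up to 600 nucleotides was assigned to a class by how far its middle lay from the start codon, and reads were summed per class. In the first 100 nucleotides the 66 members with such a segment held 10572 reads in WT, 15313 in Chx and 3040 in Harr, and in CPM the log2 ratio of Harr to Chx was 0.09 ± 0.03. Its sign was not kept, with −0.081 ± 0.035 over the members that share at most 10% of their words and a median of −0.04 member by member. From 100 to 200 nucleotides the counts were 16237, 19809 and 1700 (−1.12 ± 0.04). From 200 to 400 they were 20734, 23372 and 1810 (−1.27 ± 0.04).
From 400 to 600 nucleotides the counts were 8540 in WT, 9578 in Chx and 843 in Harr (−1.09 ± 0.05). From 600 to 900 they were 3224, 3840 and 624 (−0.20 ± 0.06). Beyond 900 nucleotides, where 12 members have segments, they were 1110, 1228 and 345, and the ratio was positive (0.59 ± 0.09).
The classes were also read member by member. Among members with at least 20 reads in the pair, 30 of 62 lay above 0 in the first 100 nucleotides, 8 of 59 in the next class, 4 of 67 from 200 to 400 and 4 of 49 from 400 to 600. From 600 to 900 nucleotides 9 of 26 lay above 0, and beyond 900 all 12 did, from 0.10 to 1.55.

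Some single genes show parts of the same shape. In Mrps22 the first 172 coding nucleotides held 308 reads in WT, 367 in Chx and 130 in Harr, whereas the next 164 held 307, 372 and 16 and the following 165 held 197, 230 and 11. Its last 96 nucleotides held 35, 28 and 12. In Mrps14 the first 45 nucleotides held 93, 118 and 96 reads and the last 183 held 700, 772 and 26. On the transcript of Mrps14 with the most reads, whose CDS has 135 nucleotides, the ratio was 1.16 ± 0.16, a call of higher. In Mrps5 the first 58 nucleotides held 43, 195 and 116 of the gene's 614, 876 and 235 reads. In Mrpl16, by contrast, the first 55 nucleotides held 87, 96 and 2.
Other genes with CDSs under 1400 nucleotides gave ratios of 0.21, −1.08, −1.49, −1.27, −0.56 and 0.54 over the same 6 classes. Cytosolic ribosomal protein genes gave −0.42, −2.05, −2.15, −1.57, −0.74 and 0.60, the last from 2 genes. Nuclear genes of oxidative phosphorylation gave −0.68, −1.87, −2.16, −1.82, −1.29 and −0.15.

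**Figure D3:**
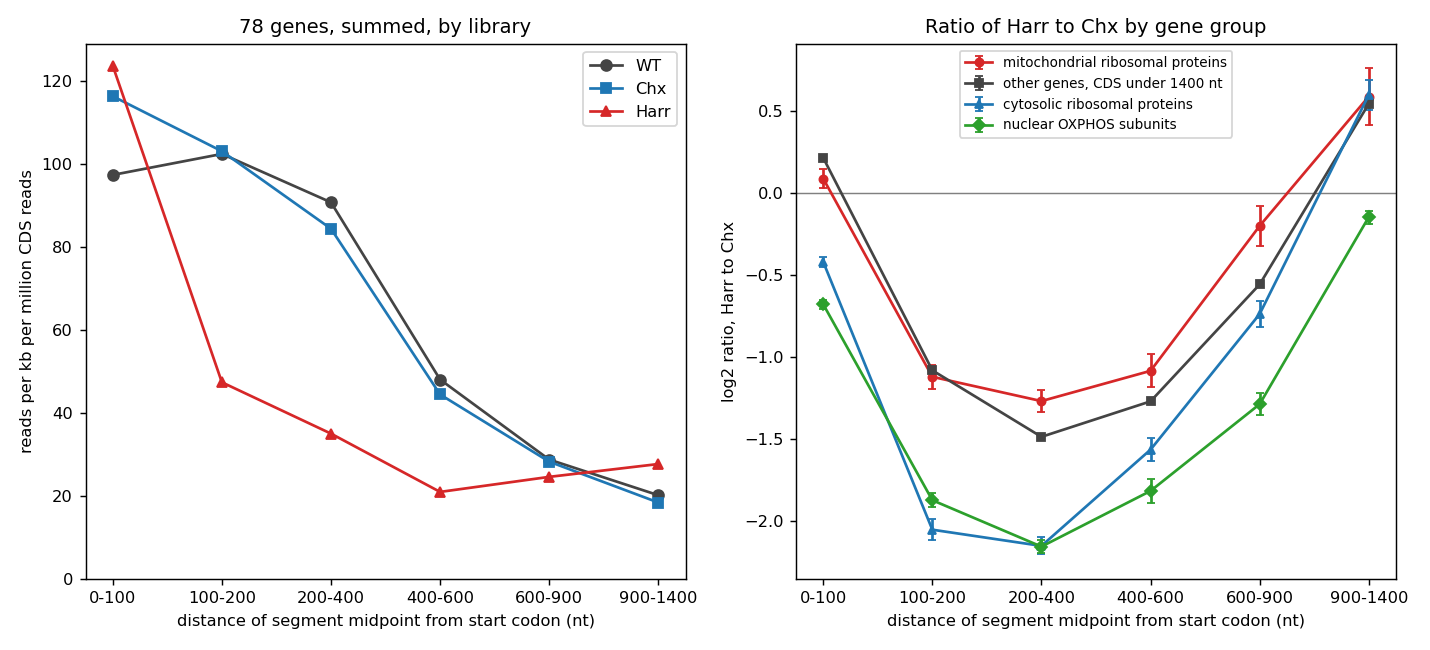
Left, CPM per kilobase summed over the 78 genes by how far each segment's middle lies from the start codon (nucleotides), in WT, Chx and Harr. Right, log2 ratio of Harr to Chx over the same classes with 95% counting intervals, for the 78 genes and 3 other groups of genes. The members' ratio is 0.09 in the first class (−0.081 without members that share over 10% of their words), is −1.27 from 200 to 400 nucleotides and is 0.59 beyond 900, and different classes hold different genes.

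Against untreated neurons the picture was close to that against Chx, but both comparisons use the same Harr library. The members' median log2 ratio of Harr to WT was −0.69, with 74 of 78 below 0, and 50 were called lower, against 26.4% of all genes tested. Of the 3 genes above, Mrps36 (0.96) and Mrps5 (0.76) were called higher in Harr than in WT, while Mrps33 was at −0.04. Mrpl30 (1064 CDS reads in WT, 1397 in Chx and 281 in Harr) and Mrpl3 were next, at 0.22 and 0.16, and were not called. The lowest ratios were those of Mrpl42 (−2.61), Mrpl16 (−2.01), Mrpl23 (−1.97) and Mrps6 (−1.81).
Mrpl42 held 229 CDS reads in WT, 134 in Chx and 8 in Harr on its longest transcript, which is annotated as a target of nonsense-mediated decay. On its longest transcript of type protein_coding it held 606, 435 and 60, and the ratio was −1.18. In 43 members (55.1%) the CDS was called lower in Harr in both pairs, which share the Harr library, against 22.9% of all genes. In 18 (23.1%) it was called lower in neither, against 69.7% of all genes.

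For the 5′ UTR the picture was the opposite, and it held a larger share of the members' reads in Harr than in the other libraries. The counting took the 5′ end of a read as its position, which puts the footprint of a ribosome on the start codon into the 5′ UTR. Summed over the members, 5′ UTR reads were 4761 of all 5′ UTR, CDS and 3′ UTR reads in WT, or 7.14% (Wilson 95% interval 6.95 to 7.34). In Chx they were 9229 (11.1%, 10.8 to 11.3) and in Harr 9451 (50.1%, 49.4 to 50.8). Among the 50 members that share at most 10% of their CDS words the shares were 5.67% in WT, 9.53% in Chx and 44.6% in Harr. Among the 28 that share more they were 10.3%, 14.4% and 59.3%, and the part of shared words in this gap was not tested. The shares over all genes were 6.14%, 8.71% and 33.5%, but they differ with CDS length. Under 600 nucleotides the members' shares were 9.76% in WT, 14.1% in Chx and 58.7% in Harr, against 7.80%, 12.1% and 55.1% over all genes. From 600 to 1200 nucleotides the order was the reverse, with 3.86%, 7.58% and 39.1% for members against 7.26%, 10.6% and 47.8%. The share was highest in Harr in 76 of 78 members, and in 31 members the 5′ UTR held more reads than the CDS in Harr, against 2 in Chx and 1 in WT. Such counts over all genes are not given, so these are not set against a background.

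A 5′ UTR:CDS ratio was compared as a log2 odds ratio where the 5′ UTR held at least 10 reads in the pair, and was called where it was at least 1 in size and its interval did not reach 0. In Harr against Chx, 72 of 75 members were called higher and none lower, against 88.8% of all genes called higher. The members' median was 3.09, against 2.45 over all genes. Over CDSs under 600 nucleotides it was 3.33 for members and 3.06 for all genes, and from 600 to 1200 it was 3.06 and 2.95. In Harr against WT, 73 of 75 were called higher, against 93.7%, with a median of 4.10 against 3.23. A member can reach 10 reads through the Harr library alone, so the counts were also taken with at least 10 reads in the library other than Harr, a minimum set after the data were seen. Against Chx 71 of 73 members were then called higher, against 89.8% of all genes, and against WT 62 of 63, against 94.2%.

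The highest odds of Harr to Chx were those of Mrpl33, with 270 5′ UTR reads in WT, 149 in Chx and 531 in Harr (log2 odds 5.04 ± 0.22) in a 5′ UTR of 16 nucleotides. Mrpl17 had 31, 29 and 61 (4.99 ± 0.35), and Mrps17 203, 306 and 521 (4.86 ± 0.19). Mrpl55 had 73, 78 and 163 (4.60 ± 0.31). In all 4 the raw 5′ UTR count was highest in Harr, although that library held the fewest reads. The 5′ UTR of Mrpl33 also lies within an overlapping transcript of another gene, and that of Mrpl17 overlaps the CDS of another transcript of the gene.
The lowest odds of Harr to Chx were those of Mrps10, with 61 5′ UTR reads in WT, 67 in Chx and 7 in Harr (0.92 ± 0.63), followed by Mrps36 with 32, 48 and 31 (0.93 ± 0.37). On the transcript of Mrps10 with the most reads, whose 5′ UTR has 16 nucleotides, the counts were 14, 35 and 20 and the log2 odds 2.58. Mrps5 (18, 103 and 84, 1.60 ± 0.24) and Mrps11 (25, 51 and 27, 1.67 ± 0.38) were called higher in spite of their place at the low end. Mrpl53 had 8, 8 and 3 reads (1.71 ± 0.93) and was not called.
Against WT the highest odds were those of Mrpl54 (1, 30 and 28 5′ UTR reads in WT, Chx and Harr, log2 odds 7.12), Mrps16 (14, 78 and 65, 5.90), Mrps24 (8, 81 and 47, 5.38) and Mrpl16 (42, 100 and 92, 5.28). Those of Mrpl54 and Mrps24 rest on 1 and 8 reads in WT. Mrps10 (0.75), Mrps36 (1.14), Mrpl53 (1.42) and Mrpl42 (2.17) were lowest. This order depends on the transcript, since Mrps10 stood at 3.50 on its transcript with the most reads, and Mrpl42 at 0.78, under the size of a call, on its longest of type protein_coding.

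Some members held few 5′ UTR reads or none. Mrps30, with a 5′ UTR of 18 nucleotides, and Mrpl23, with 132, held 0 5′ UTR reads in all 3 libraries. On the transcript of Mrpl23 with the most reads, whose start codon lies elsewhere, the 5′ UTR held 5 reads in WT, 15 in Chx and 15 in Harr. Mrps33 held 6, 1 and 3. Where no 5′ UTR read was seen, up to 3 counts are allowed by counting error, against 109 CDS reads of Mrps30 in Harr.
The highest share in Harr was that of Mrpl51, named here after its values were seen, where 324 5′ UTR reads stood beside 22 CDS reads (92.8%), against 47.7% in WT and 55.5% in Chx. In Mrpl52 it was 91.3%, but there the 5′ UTR of the longest transcript overlaps the CDS of another transcript of the same gene. On the transcript of Mrpl52 with the most reads the CDS held 820, 1059 and 238 reads in WT, Chx and Harr (log2 ratio of Harr to Chx 0.27 ± 0.10), against −1.17 on the longest.
Where a 5′ UTR lies in more than 1 exon segment, reads beside the start codon could be set against those further upstream. In the 14 such members the segment next to the start codon held 838 reads in WT, 1509 in Chx and 1733 in Harr, and the segments upstream of it 979, 1794 and 1412. The read density next to the start codon was 21.4 times that of the CDS in Harr, with 1.92 for Chx and 1.32 for WT. Further upstream the quotients were 3.01, 0.394 and 0.266. Without the 4 of these members whose 5′ UTR overlaps an annotated CDS (Mrpl41, Mrpl52, Mrps10 and Mrps23), they were 14.99, 1.48 and 1.03 next to the start codon and 2.56, 0.217 and 0.136 upstream. The corresponding values over 4142 genes were 8.29, 1.56 and 1.25, and 2.28, 0.480 and 0.329. The quotients were thus higher in Harr at both places, and they divide by a CDS density that was itself lower in Harr. Whether the rise is particular to the start codon was not tested.

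The 6 members with AAGATGGCG at the start codon had log2 odds of Harr to Chx between 2.49 and 3.33, with a median of 2.95, within the range of the other members. Their CDS ratios of Harr to Chx lay between −1.07 and −0.42, and 5 of the 6 were called lower, against 67.9% of all members and 26.8% of all genes. Members with an upstream ATG had median odds of 3.01 and those without 3.14, a smaller gap than the 2.25 and 2.77 of all genes. Between 5′ UTRs of under 30, 30 to 99 and 100 or more nucleotides the members' medians were 2.67, 3.11 and 3.27.

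**Figure D4:**
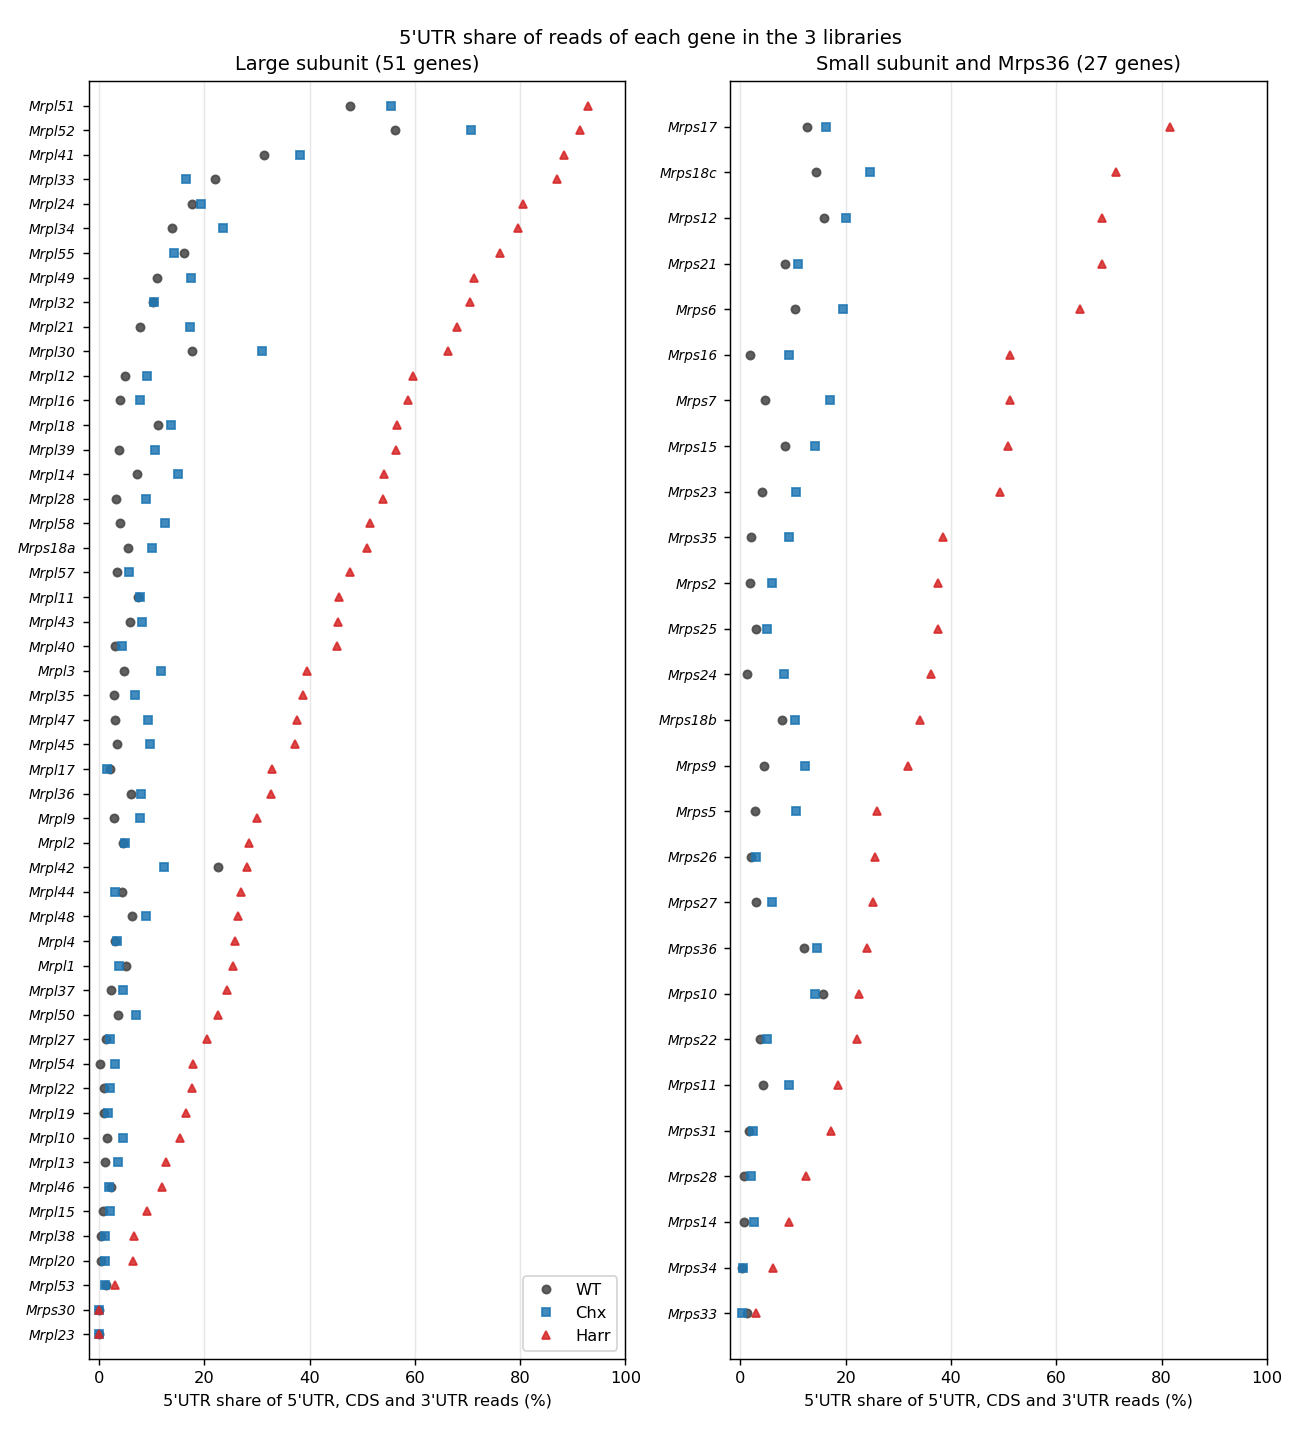
Share of each gene's 5′ UTR, CDS and 3′ UTR reads that lay in the 5′ UTR (%) in WT (circles), Chx (squares) and Harr (triangles), with genes ordered by the share in Harr. The Harr points run from 0 (Mrps30 and Mrpl23) to 92.8% (Mrpl51), and lie to the right of both other points in 76 of 78 genes. The CDS of Mrpl51 shares 70.0% of its words with other genes.

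The members' CDS reads in Chx were close to those in untreated neurons. The median log2 ratio of Chx to WT was −0.01, and 73 of 78 members lay within 0.5 of 0. Only Mrpl9, a large-subunit protein (433 CDS reads in WT and 764 in Chx, 0.54 ± 0.09), and Mrpl12 (1246 and 2191, 0.54 ± 0.05) were called higher in Chx, against 3.53% of all genes. Mrpl42 (−1.05 ± 0.16), Mrpl33 (−0.64 ± 0.07) and Mrps33 (−0.60 ± 0.10) were called lower, against 2.86%. Mrpl14 (838 and 1385 reads, 0.45 ± 0.06), Mrpl2 (448 and 725, 0.42 ± 0.09) and Mrps21 (517 and 461, −0.44 ± 0.09) were next and were not called. On the transcript with the most reads Mrpl9 was at 0.34 and was not called either. Both counts were near the background of all genes.

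The 5′ UTR:CDS ratio did differ between Chx and WT. It was called higher in Chx in 30 of 75 members and lower in none, against 30.2% of all genes higher. Of the 75 members, 12 held under 10 5′ UTR reads in WT and passed only on the sum with Chx, and with at least 10 in WT the count was 24 of 63 (38.1%), against 27.6% of all genes. The members' median was 0.91, against 0.66 over all genes, and 66 of 78 members had a higher 5′ UTR share in Chx, a count not given over all genes. Mrpl54 had 1 5′ UTR read in WT and 30 in Chx beside 850 and 951 CDS reads (4.18, resting on that 1 read), and Mrps24 had 8 and 81 beside 586 and 882 (2.67). Mrps16 had 14 and 78 beside 731 and 776 (2.35), and Mrps35 had 17 and 106 beside 867 and 1045 (2.34). The lowest were Mrpl42 (183 and 62 5′ UTR reads, −0.78), Mrpl44 (33 and 24, −0.60), Mrpl33 (−0.50) and Mrpl17 (−0.49), none of them called. On the longest transcript of Mrpl42 of type protein_coding the counts were 177 and 48 and the log2 odds −1.39, a call of lower in Chx. Near the start codon inside the CDS the same direction was seen, with a log2 ratio of Chx to WT of 0.26 ± 0.02 over the first 100 coding nucleotides and between −0.13 and 0.01 beyond them.

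The 3′ UTRs, where no annotated translation takes place, held few reads. Over the members they were 2.20% of reads in WT, 1.33% in Chx and 5.52% in Harr, against 2.18%, 1.71% and 4.10% over all genes. Without Mrpl42 and Mrps34, whose 3′ UTRs overlap annotated CDSs, the members' shares were 1.20%, 0.649% and 4.70%. In Harr against Chx the 3′ UTR:CDS ratio was called higher in 47 of the 47 members with at least 10 reads in the pair, against 85.6% of all genes. In Harr against WT it was called higher in 48 of 53, against 79.0%, and in Chx against WT it was called lower in 16 of 43, against 38.5%. Of the 47 members, 30 held under 10 reads in Chx and so passed only with the reads of Harr, where the ratio was higher, and nothing is read from that count. With at least 10 reads in the library of the lower ratio, the calls were 17 of 17 members against 72.3% of all genes (Harr to Chx), 24 of 29 against 73.5% (Harr to WT) and 4 of 17 against 25.1% (Chx to WT). Among the members Mrpl42 (398, 308 and 69 3′ UTR reads in WT, Chx and Harr) and Mrps34 (299, 274 and 100) held the most, and in both the 3′ UTR of the longest transcript, annotated as a target of nonsense-mediated decay, overlaps an annotated CDS of another transcript, for Mrps34 also of another gene.

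By subunit, the 51 large-subunit genes held 41235 CDS reads in WT, 50891 in Chx and 5538 in Harr, and the 26 small-subunit genes 18963, 21966 and 2728. Between Harr and Chx the large subunit's median was −0.82, with 38 of 51 called lower and none higher. For the small subunit it was −0.58, with 15 of 26 called lower and 2 higher. Of all genes 26.8% were called lower and 20.1% higher. The 5′ UTR share rose from 7.88% in WT to 53.0% in Harr for the large subunit and from 5.46% to 44.0% for the small, against 6.14% and 33.5% over all genes. CDS ratios and 5′ UTR shares differ with CDS length over all genes, as given above, and length was not matched here.

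Mammals have several paralogs of one bacterial protein, S18, of which Mrps18a sits in the large subunit and Mrps18b and Mrps18c in the small. Mrps18a held 953 CDS reads in WT, 1444 in Chx and 158 in Harr, Mrps18b 627, 685 and 128, and Mrps18c 498, 586 and 100. Per length the levels were 53.4, 68.4 and 27.4 RPKM for Mrps18a, 27.1, 25.1 and 17.2 for Mrps18b, and 42.6, 42.4 and 26.5 for Mrps18c. Between Harr and Chx, Mrps18a was called lower (−0.77 ± 0.12), whereas Mrps18b (0.01 ± 0.14) and Mrps18c (−0.12 ± 0.16) were not called. Their 5′ UTRs of 32, 26 and 23 nucleotides held 50.8%, 34.2% and 71.3% of their reads in Harr, against 5.58%, 7.87% and 14.4% in WT. The CDSs of Mrps18b and Mrps18c share 49.7% and 46.0% of their words with other genes, that of Mrps18a none. The 5′ UTR of Mrps18c shares 91.3% of its words.

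The other genes of the pathway were taken from short lists of mitoribosomal proteins under other symbols, mitochondrial translation factors and assembly factors, and 26.8% of all genes were called lower and 20.1% higher in the same comparison. Of the 5 proteins under other symbols, 3 were called lower in Harr than in Chx and none higher (median −0.81), from Aurkaip1 (1018 CDS reads in WT, 1420 in Chx and 103 in Harr, −1.36 ± 0.15) to Dap3 (1639, 1936 and 316, −0.19 ± 0.09). Of 14 translation factors, 8 were called lower and 1 higher (median −0.71). Tufm, the elongation factor that delivers tRNA, was lowest (1959, 2494 and 186, −1.32 ± 0.11) and Mtfmt, which formylates the initiator tRNA, highest (148, 195 and 69, 0.93 ± 0.20). Of 22 assembly factors tested out of 23, 7 were called lower and 4 higher (median 0.05), from the methyltransferase Mrm2 (327, 307 and 22, −1.35 ± 0.32) to Fastkd2 (347, 355 and 109, 0.72 ± 0.16). Median levels in WT were 45.5 RPKM for the first list, close to the members, 14.7 for the factors and 8.60 for the assembly proteins.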

How the data were processed

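Ribosome-protected fragments were sequenced from 3 libraries (WT, Chx and Harr, 1 each). The authors deposited, for 5′ UTR, CDS and 3′ UTR exon segments (mm10), raw read counts, counts per nucleotide (a coverage signal) and RPKM. Per the file headers, Plastid counted reads of 25 to 100 nucleotides at their 5′ end with an offset of 0, and the alignments had ribosomal reads and duplicates removed. For an open reading frame search on libraries of these 3 treatments, the study's methods name TopHat against the transcriptome, with several hits allowed per read and positions set from the 3′ end. For its other ribosome profiling they name Rsubread against mm10 before Plastid. Which alignment the deposited tables rest on, and how multiply matching reads were counted in them, is not stated. Free-text sample descriptions named fractions of another experiment, so groups were taken from the treatment labels.

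Only counts were used, summed per region, and RPKM was recomputed from counts, region length and header totals. Transcript identifiers were matched to GENCODE M21 (99.4% of 142446, version ignored). CDS ratios were scaled to CDS reads of 20823 genes, with 0.5 added to each count. Calls are stated in the text, Wilson intervals and standard errors cover counting error only, and the calculation was tested on simulated data. Words of 25 nucleotides were compared with all M21 transcripts. UTR overlaps were found with bedtools 2.31.1, and pandas 2.3.3 and scipy 1.17.1 did the rest.

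The members and lists were chosen with earlier results of these data known. Genes were named by rule: the 5 highest and lowest WT levels, the 4 highest and lowest CDS ratios (at least 200 reads) and 5′ UTR:CDS odds per pair, the S18 paralogs, and 8 members with known roles; Mrps14, Mrps34, Mrpl51, Mrpl52 and the members with AAGATGGCG were added after their values were seen.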

Additional observations from a re-analysis of the deposited data

How the results depend on the processing

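With 1 library per treatment no result has a replicate check, and Harr, the shallowest library, limits every ratio that uses it. No paired analysis was possible because no group has a second library. The direction of each median over the members was kept under each alternative that gave one, except that of the CDS ratio of Chx to WT, which lies at 0 within its spread. Scaled to all aligned reads, the median CDS ratio was −1.32 for Harr to Chx and −1.21 for Harr to WT, and Mrps5 turned to −0.023. With a call at a log2 size of 1, 25 members were lower in Harr than in Chx, 28 lower than in WT, and 0 higher in Chx than in WT. Without members that share over 10% of their words, these counts were 34, 30 and 1, of 50 members. Members higher in Chx than in WT numbered 0 with median-of-ratios size factors and 1 on the transcripts with the most reads, where 5′ UTR shares were 10.6% in Chx and 6.54% in WT. With a 5′ UTR call at 2, 4 members were higher in Chx than in WT, again without a share over all genes at that size. In the 68 members whose UTRs overlap no CDS, 5′ UTR shares were 10.04%, 48.7% and 6.13% in Chx, Harr and WT. In members with CDSs of at least 600 nucleotides, the ratio of Harr to Chx was −0.96 at 100 to 200 and −1.11 at 200 to 400 nucleotides. Without members that share over 10% of their words, a choice made after seeing the data, the ratio in the first 100 nucleotides turned to −0.081. Members' 3′ UTR shares in Chx, Harr and WT were 3.42%, 5.996% and 4.42% on the transcripts with the most reads and 0.630%, 4.80% and 1.17% where UTRs overlap no CDS. They were 0.741%, 4.98% and 1.36% on the longest protein_coding transcripts and 0.649%, 4.70% and 1.20% without Mrpl42 and Mrps34, all chosen after seeing the data. With at least 10 3′ UTR reads in the library of the lower ratio, a minimum set after the data were seen, 17 members were higher in Harr than in Chx, 24 higher than in WT and 4 lower in Chx than in WT, with median log2 odds of 2.70, 2.72 and −0.098. Without 5′ UTRs that overlap a CDS, left out after seeing the data, the quotient of 5′ UTR to CDS read density beside the start codon was 1.48, 14.99 and 1.03 (Chx, Harr, WT), and upstream 0.217, 2.56 and 0.136. The causes of these shifts were not tested, apart from the smaller number of genes where genes were left out. The longest transcript of type protein_coding, an alternative chosen after seeing the data, changed calls only of Mrpl42 among the 41 genes named by rule.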
